A study of Mus musculus with 18 samples.

Results

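The 9 genes described here encode the fatty acid desaturases and elongases Scd1, Scd2, Fads1, Fads2, Elovl1, Elovl2, Elovl3, Elovl5 and Elovl6, out of 15572 genes listed in the RNA-seq count table of mouse liver. They were taken by symbol and chosen by the RNA-seq difference between JMJD1C-LKO and WT refed libraries, for a pattern in which Scd1 is higher and the enzymes of fatty acid synthesis are not. So the RNA values of the 9 genes and of those synthesis enzymes are a description and carry no test for them. The chromatin files, in contrast, were not part of that pattern, though the choice was made with earlier results of these data known. All 9 passed the filter on low counts.

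Stearoyl-CoA desaturases put the first double bond, at carbon delta-9, into saturated acyl-CoA, which yields oleate and palmitoleate. Fads2 (delta-6) and Fads1 (delta-5) add double bonds to the essential fatty acids, and the elongases condense malonyl-CoA with an acyl-CoA to lengthen it, alternating with the desaturases on the route to arachidonate and docosahexaenoate. In liver, several of these genes are known targets of SREBP-1c and LXR and follow feeding with carbohydrate.

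Livers came from C57BL/6J mice, either wild type (WT) or JMJD1C-LKO. In the latter a floxed Jmjd1c is deleted by Cre under the albumin promoter, active in hepatocytes. Liver cells without Cre activity keep the gene. Jmjd1c encodes a histone demethylase that acts on H3K9me2, a mark of silent chromatin. The mice had chow for 6 to 8 weeks, were fasted overnight and, when refed, had a high carbohydrate diet for 6 h per the labels, while the study's methods give 8 to 16 h of a fat-free diet and an age of 12 weeks. RNA-seq had 2 WT refed and 2 JMJD1C-LKO refed libraries, each of pooled RNA. ATAC-seq, which marks open chromatin, had 2 livers of each of 3 groups (fasted WT, refed WT and refed JMJD1C-LKO), and H3K9me2 ChIP-seq had 2 livers each of WT fasted and WT refed, with input.

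The RNA-seq libraries held 51265128 to 54400509 estimated counts. Jmjd1c itself had 22.0 and 22.8 CPM (counts scaled to library size) in WT and 20.04 and 20.5 in LKO-labelled libraries, a log2 difference of -0.14 ± 0.08 (SE, n = 2 per group), which edgeR's quasi-likelihood test did not call lower. The study's scheme of the allele places exons 8 and 9 between the loxP sites, but the counts cover the whole transcript and cannot single out these exons. For this reason the libraries are called LKO-labelled throughout. Of 14151 genes tested, 2066 were called higher (14.6%) and 1892 lower (13.4%) in LKO-labelled libraries at an adjusted p under 0.05. Markers of Kupffer cells moved too: all 5 were called higher, with summed CPM of 189 and 196 in WT and 353 and 534 in LKO-labelled libraries. Of 5 endothelial markers 4 were higher, as were 1 of 5 stellate, 1 of 5 lymphocyte and 0 of 5 cholangiocyte markers, while 0 of 4 hepatocyte markers were called and their summed CPM was 96444 to 111704. The 2 listed adipocyte markers summed to 0.214 to 0.272 CPM. Red blood cell markers had 1 of 5 higher. Periportal markers had 3 of 5 higher and pericentral markers 2 of 5, male-biased liver genes 2 of 5 higher, female-biased genes 1 higher and 1 lower of 5, sex-linked genes 1 lower of 5, and clock genes 1 higher and 3 lower of 9. The part of these shifts in the values below was not tested. In bulk liver, a change in the number of cells of a type and a change in RNA per cell cannot be told apart.

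The RefSeq promoter table for GRCm38.p6 held 5 of the 9 genes in 7 windows. Below are the 250 bases before the start of 4 of them, chosen because the results turn on them: Fads2 has the only ATAC summit at a start, Elovl2 is the most abundant in WT, Elovl5 holds an E-box and Elovl6 is the only one called lower. Capitals mark matches, on either strand, to 4 motifs: the E-box CACGTG, the sterol response element TCACNCCAC, the CCAAT box CCAAT and the GC box GGGCGG. Where matches overlap they run into each other.
Windows are chr19:10101504-10101753 (minus strand), chr9:77917115-77917364 (plus), chr13:41220404-41220653 (minus) and chr3:129532136-129532385 (plus), each written 5′ to 3′.
Fads2: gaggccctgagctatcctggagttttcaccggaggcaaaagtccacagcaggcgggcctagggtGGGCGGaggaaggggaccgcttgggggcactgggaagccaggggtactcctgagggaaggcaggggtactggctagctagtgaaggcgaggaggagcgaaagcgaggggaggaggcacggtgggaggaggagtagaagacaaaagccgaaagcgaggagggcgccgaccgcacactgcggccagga
Elovl5: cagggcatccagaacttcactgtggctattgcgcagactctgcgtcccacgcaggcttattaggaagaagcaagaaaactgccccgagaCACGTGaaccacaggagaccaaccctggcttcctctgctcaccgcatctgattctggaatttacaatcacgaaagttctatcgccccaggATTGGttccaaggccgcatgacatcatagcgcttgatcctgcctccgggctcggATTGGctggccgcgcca
Elovl2: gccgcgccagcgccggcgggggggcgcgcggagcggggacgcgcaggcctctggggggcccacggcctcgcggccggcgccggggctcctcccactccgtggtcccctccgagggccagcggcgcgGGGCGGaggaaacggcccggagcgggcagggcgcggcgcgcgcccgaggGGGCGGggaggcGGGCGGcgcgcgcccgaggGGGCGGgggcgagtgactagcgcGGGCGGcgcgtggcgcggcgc
Elovl6: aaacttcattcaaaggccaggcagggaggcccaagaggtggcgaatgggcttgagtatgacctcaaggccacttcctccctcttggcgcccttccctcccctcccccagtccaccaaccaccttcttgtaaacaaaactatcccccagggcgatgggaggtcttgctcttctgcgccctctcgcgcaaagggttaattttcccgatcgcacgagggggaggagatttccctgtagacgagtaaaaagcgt

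The Fads2 window holds 1 GC box, 186 to 181 bases upstream of the start. The Elovl5 window holds an E-box 161 to 156 bases upstream and 2 CCAAT boxes, and the Elovl2 window holds 5 GC boxes. The Elovl6 window holds none of the 4. Across 32851 promoter windows, 6.02% held the E-box, 1.05% the sterol response element, 33.8% a CCAAT box and 32.7% a GC box. No window of the 5 genes held the sterol response element, which says only that these letters are not in these bases.

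The delta-9 desaturases differed widely in level (coordinates are mm10). Scd1 (chr19:44394450-44407709), the main hepatic delta-9 desaturase, had 368 and 354 CPM in the WT refed libraries and 1315 and 1571 in the LKO-labelled libraries. Both LKO-labelled values lay far above both WT values, a log2 difference of 2.0 ± 0.10 (SE), or 3.99-fold, and 157 of the 14151 tested genes had a higher one. Scd2 (chr19:44293676-44306864), the isoform best known from brain, had 2.68 and 2.44 CPM in WT and 3.10 and 4.08 in LKO-labelled libraries, a log2 difference of 0.49 ± 0.21. It was not called, but it was when LKO-labelled library 1 was left out. Of the 50-base stretches in the Scd1 transcript, 3.03% also occur in Scd2, so the Scd2 value is uncertain, since the counting could split such reads between them. Scd3 and Scd4 are not listed.

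Both front-end desaturases were a little higher. Fads1 (chr19:10182888-10196874), the delta-5 desaturase, had 181 and 206 CPM in WT and 226 and 242 in LKO-labelled libraries, a log2 difference of 0.28 ± 0.09. Fads2 (chr19:10062765-10101503), the delta-6 desaturase, had 146 and 172 CPM in WT and 205 and 213 in LKO-labelled libraries, a difference of 0.39 ± 0.09. In both genes the groups did not overlap. For Fads1 the gap between the groups was smaller than the spread of the WT pair, and for Fads2 it was larger. The genes lie head to head on chromosome 19, with starts 81385 bp apart. The other family members measured were Fads3, at 4.78 and 3.60 against 5.93 and 9.36 CPM and called higher (log2 difference 0.87 ± 0.23), and Fads6 and Elovl7, which were not called.

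Of the elongases, Elovl3 moved most and Elovl6 moved the other way. Elovl3 (chr19:46131899-46135694), which makes saturated and monounsaturated very long chains, had 4.32 and 3.68 CPM in WT and 32.4 and 20.4 in LKO-labelled libraries, a log2 difference of 2.72 ± 0.21, or 6.59-fold, with 57 tested genes higher. Elovl6 (chr3:129532386-129638495), which takes palmitate to stearate, had 66.8 and 83.0 CPM in WT and 49.7 and 49.6 in LKO-labelled libraries, a difference of -0.59 ± 0.10. It is the only one of the 9 whose LKO-labelled values all lay below WT. Elovl5 (chr9:77917365-77984519), which extends polyunsaturated chains made by Fads2, had 189 and 185 CPM in WT and 248 and 287 in LKO-labelled libraries, a difference of 0.52 ± 0.09.

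The remaining elongases overlapped between groups. Elovl2 (chr13:41182382-41220403), which extends longer polyunsaturated chains towards docosahexaenoate, had 466 and 487 CPM in WT and 476 and 470 in LKO-labelled libraries, a log2 difference of -0.01 ± 0.08. Elovl1 (chr4:118428093-118432953), a very-long-chain elongase, had 40.3 and 39.5 CPM in WT and 44.3 and 38.9 in LKO-labelled libraries, a difference of 0.06 ± 0.09. The share of Elovl1 counts on its transcript NM_001039175 ran from 3.25% to 19.4% over libraries, with both extremes in WT. The estimated split between transcripts thus varied within a group, and whether the isoforms themselves differed was not tested. For Elovl2 the more abundant transcript NM_019423 took 72.4% to 72.6% of counts in all 4 libraries.

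Of the 9 genes, 5 were called higher and 1 lower, beside 14.6% and 13.4% of all tested genes, and nothing is read from this since the contrast chose them. With 1 library left out in turn, the log2 difference ran from 0.18 to 0.37 for Fads1 and from 0.28 to 0.51 for Fads2. For Elovl5 it ran from 0.41 to 0.61 and for Elovl6 from -0.74 to -0.43. Some calls, of these genes and of others, were lost in such fits, which leave 1 library in a group. Separately, LKO-labelled values were all above WT in 6 of the 9 and all below in 1, where 33.6% and 33.8% of all tested genes did the same in each direction. The median log2 difference of the 9 was 0.39, against 0.006 for all genes tested. Nothing is read from the overlap or the median either, since the same contrast chose the 9 genes.

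**Figure D1:**
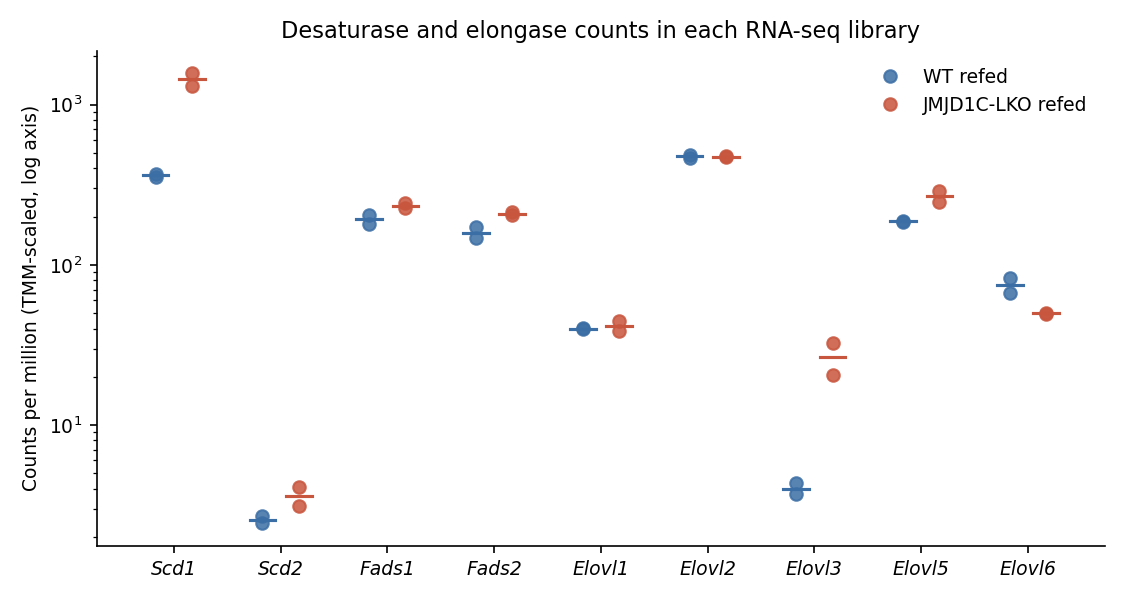
CPM (log axis) of the 9 genes in each RNA-seq library, blue for WT refed and red for the LKO-labelled refed libraries, with a line at each mean of 2. Scd1 and Elovl3 stand furthest apart between groups, Elovl2 and Elovl1 overlap, and Elovl6 is lower in the LKO-labelled libraries.

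Compared per transcript length, as TPM (transcripts scaled to length and library size), the 9 genes ranked Elovl2, Scd1, Elovl5, Fads1, Fads2, Elovl1, Elovl6, Elovl3 and Scd2 in WT refed liver. Elovl2 stood at 206 and 219 TPM and Scd1 at 130 and 127, both clear of their neighbours. Fads1 (89.0 and 103) and Fads2 (85.6 and 103) did not differ beyond their spread. Elovl1 had 38.7 and 38.0 TPM and Elovl6 had 19.1 and 24.3 TPM, Elovl3 3.91 and 3.41, and Scd2 0.839 and 0.774.

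In LKO-labelled libraries Scd1, at 448 and 562 TPM, stood above Elovl2 at 204 and 211, and Elovl3, at 28.4 and 18.8, stood above Elovl6 at 13.8 and 14.4. Within a library, the TPM of Scd1 over that of Elovl6 was 6.78 and 5.25 in WT and 32.5 and 39.0 in LKO-labelled libraries. The 9 genes together made 688 and 735 TPM in WT and 1107 and 1271 in LKO-labelled libraries, and Scd1 was 18.8% and 17.3% of that sum against 40.5% and 44.2%.

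**Figure D2:**
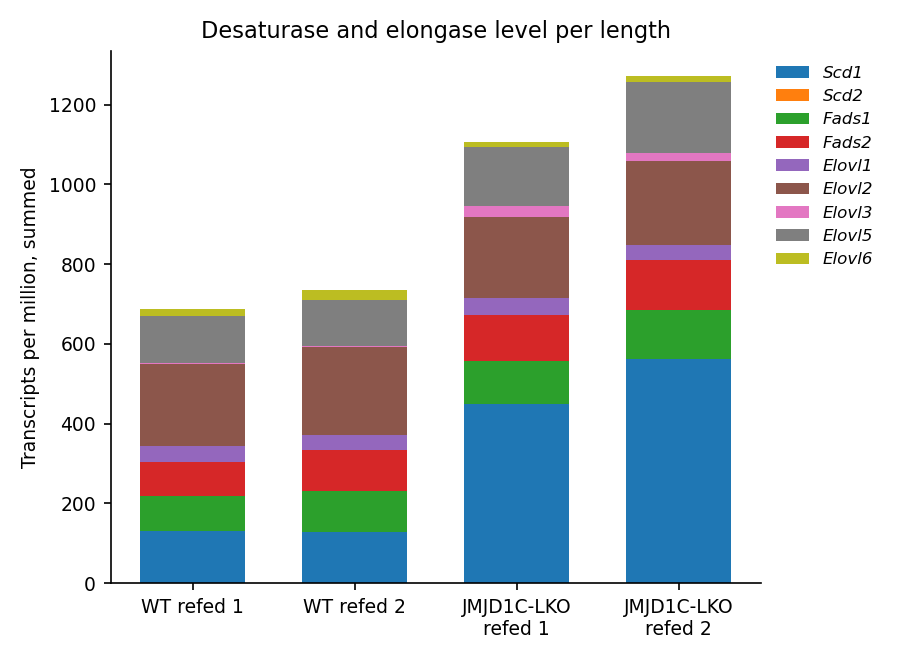
Stacked bars of TPM of the 9 genes in each library. The bar of Scd1 grows from 130 and 127 TPM in WT refed to 448 and 562 in the LKO-labelled libraries, Elovl5 goes from 116 and 116 to 147 and 179, and Elovl2 stays between 204 and 219.

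Genes of the neighbouring reactions were split between higher, lower and not called. Of 6 elongation cycle partners, the dehydratases Hacd1 (11.2 and 13.0 against 7.0 and 7.15 CPM, log2 difference -0.77 ± 0.13) and Hacd2 (-0.28 ± 0.08) were lower, and the ketoacyl-CoA reductase Hsd17b12 (0.07 ± 0.09) and trans-enoyl reductase Tecr (-0.02 ± 0.08) were not called. Of 5 electron transfer genes tested only the mitochondrial outer membrane cytochrome Cyb5b was called (-0.40 ± 0.09), and the endoplasmic reticulum cytochrome Cyb5a (-0.04 ± 0.09) and its reductase Cyb5r3 (0.21 ± 0.08) were not. Of 9 genes of de novo synthesis 3 were lower, the malic enzyme Me1 (-0.88 ± 0.10), Mid1ip1 (-0.79 ± 0.21) and the acetyl-CoA carboxylase Acaca (-0.57 ± 0.09), and 1, the acetyl-CoA synthetase Acss2 (0.32 ± 0.08), was higher. Fatty acid synthase, Fasn, had 158 and 198 against 169 and 121 CPM and was not called. The synthesis enzymes were part of the pattern behind the choice, so their values too are a description with no test.

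Farther from the 9 enzymes, 1 of 6 acyl-CoA synthetase genes was higher, Slc27a5 (0.47 ± 0.08). Of 9 peroxisomal genes 3 were higher and 3 were lower, the lower ones being Abcd2 (-0.70 ± 0.09), Ehhadh (-0.53 ± 0.10) and Acaa1b. Of 10 acyltransferases and ceramide synthases 3 were higher, led by Lpcat2 (1.39 ± 0.22). Of 16 regulators 3 were higher, Insig2 (1.54 ± 0.13), which retains SREBP in the endoplasmic reticulum, Scap and Insig1, and 2 were lower, Mlxipl (-0.49 ± 0.08), which encodes ChREBP, and Nr1d1. Srebf1, at 51.7 and 47.2 against 58.0 and 40.8 CPM, was not called.

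**Figure D3:**
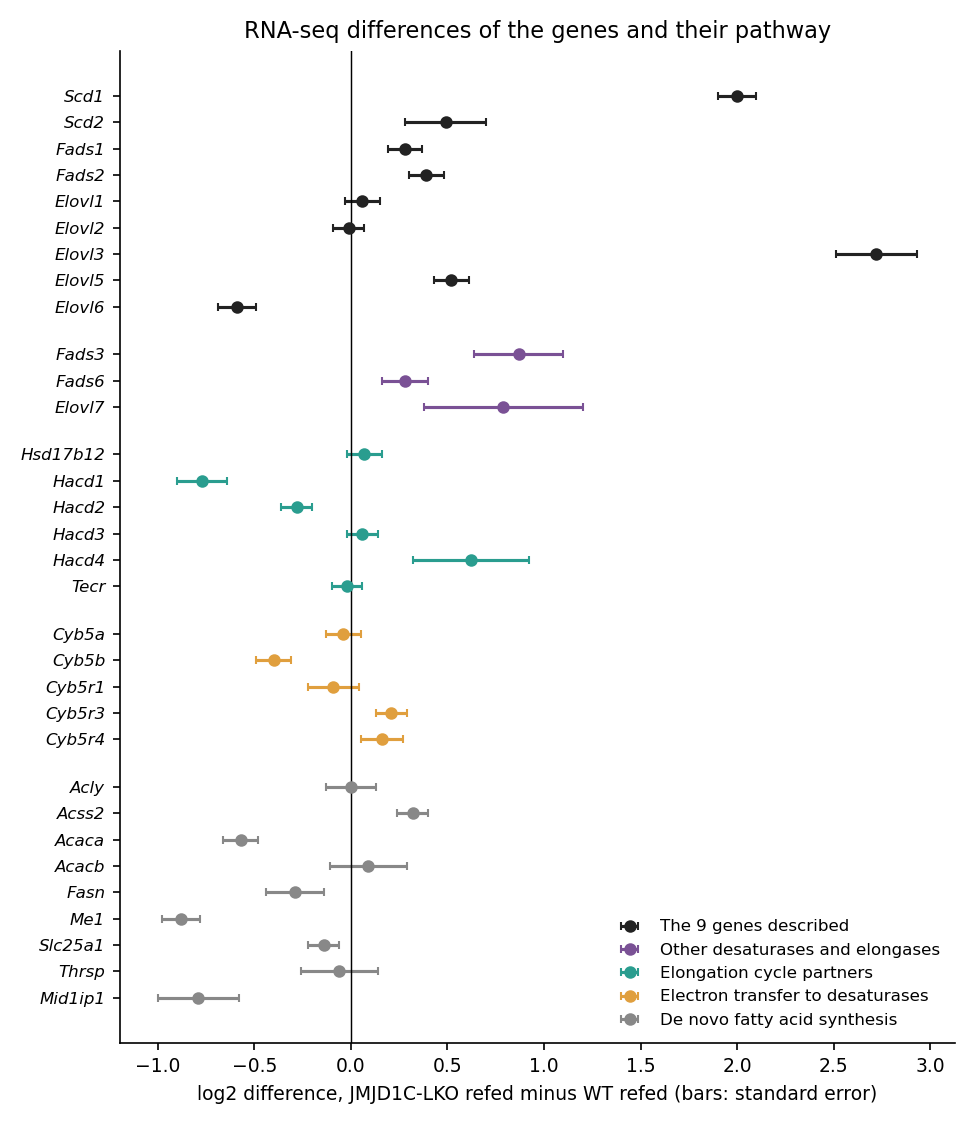
Log2 differences, LKO-labelled minus WT refed, with standard errors, for the 9 genes and for other desaturases, elongation partners, electron transfer and synthesis genes. Scd1 at 2.0 and Elovl3 at 2.72 lie beyond every other gene drawn, and Elovl6 at -0.59 lies among the lower synthesis genes.

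At the chromatin level the question was whether the starts of these genes carried open chromatin or H3K9me2. ATAC-seq found almost none: the only summit within 1000 bp of a start was 149 bp upstream of Fads2 (chr19:10101652, score 5.8, rank 2400 of 5220 summits), in WT fasted liver 1. So 1 of 9 genes had a summit in WT fasted, 0 of 9 in WT refed and 0 of 9 in JMJD1C-LKO refed, against 22.2%, 19.2% and 7.41% of the 13825 tested genes with an annotated start. Files held 825 to 7632 summits, and WT fasted liver 2 had none at Fads2. The JMJD1C-LKO refed files held the fewest, 1450 and 825. The peak files give no depth, so an absent summit does not show a closed start. The next nearest ATAC summits lay 6537 bp upstream of Elovl5 in WT refed liver 1 and 21241 bp downstream of the Fads1 start in WT fasted liver 1.

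H3K9me2 summits at starts varied by liver, for the 9 genes (0 to 8 of 9) and for all tested genes (0.123% to 74.1%). WT fasted liver 1 had them at Fads1, Fads2, Elovl2 and Elovl5 (4 of 9, against 51.6% of tested genes), WT fasted liver 2 at all but Scd2 (8 of 9, against 74.1%) and WT refed liver 2 at Scd1, Fads1, Fads2, Elovl1, Elovl2 and Elovl5 (6 of 9, against 61.6%). WT refed liver 1 had 0 of 9 against 0.123%, with only 1297 summits in its file, so it stands apart from the other 3. Taking a summit in at least 1 liver, 8 of 9 genes had one in WT fasted (74.3% of tested genes) and 6 of 9 in WT refed (61.6%). The refed count rests on liver 2 alone, and without it the count is 0. No difference between fasted and refed was tested: for the presence of a summit at 1 gene, an exact permutation test of 2 against 2 livers cannot go below p = 0.333.

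**Figure D4:**
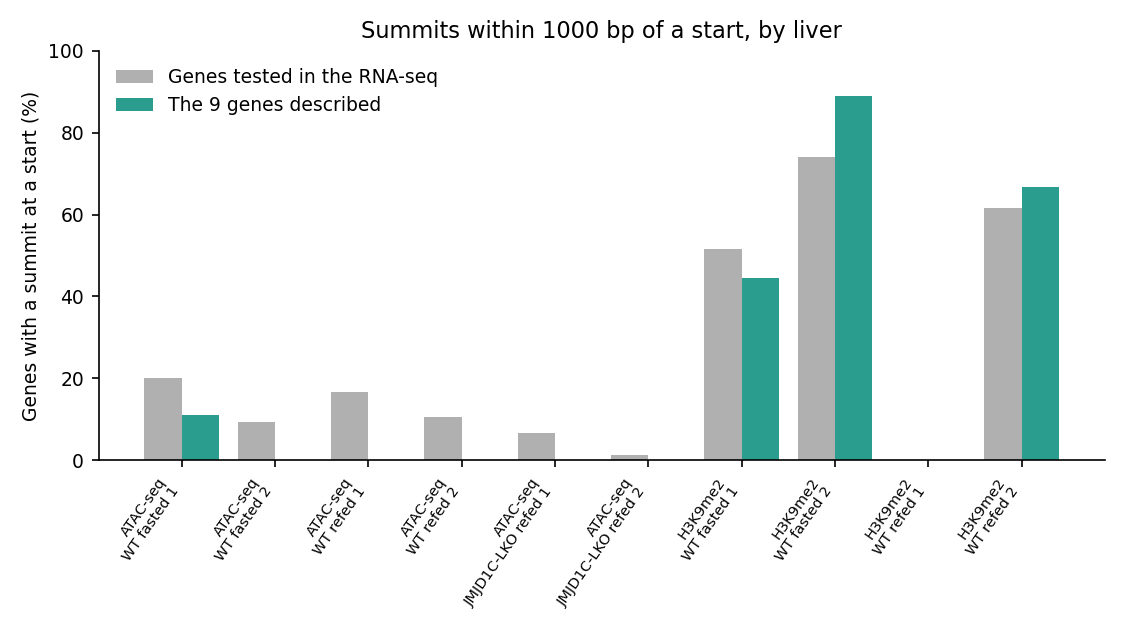
Percent of tested genes (grey) and of the 9 genes (green) with a summit within 1000 bp of a start, by liver and assay. For H3K9me2 the green bars stand for 4, 8 and 6 of 9 genes in WT fasted 1, WT fasted 2 and WT refed 2, and for 0 of 9 in WT refed 1, where the grey bar is 0.123%. For ATAC they are 0 in all but 1 liver.

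At Fads1, Fads2, Elovl2 and Elovl5 an H3K9me2 summit recurred in 3 livers at similar places, whereas at Elovl6 it did not. Over all genes, summits at starts had a median GC content within 100 bp of 67.2%, 65.7% and 65.7% in fasted 1, fasted 2 and refed 2. What part base composition plays in where summits fall was not tested. Recurrence was common: 51.3% of all tested genes had a summit at a start in both WT fasted livers, beside these 4 of 9. In fasted 1, fasted 2 and refed 2, the Fads2 summits lay 239, 252 and 265 bp downstream in exon 1. In the same order, they lay 33, 51 and 74 bp downstream at Elovl2 and 345, 320 and 364 bp at Fads1. At Elovl5 they lay 347, 284 and 377 bp downstream. The Elovl2 distances are from the start of its less abundant transcript NM_001311121 (chr13:41220162). The start of NM_019423, whose window is printed above, is upstream at chr13:41220403, so the summits lie farther from it. Where summits lie at other genes was not compared. WT fasted 2 had further summits 285 bp upstream of Fads1 and 750 bp upstream of Fads2. By score, the downstream ones of Fads2 ranked 2090 of 7690 in fasted 1, 156 of 13456 in fasted 2 and 280 of 9929 in refed 2, and those of Elovl2 ranked 512, 2049 and 212 in the same livers. In the same order of livers, the downstream summits of Fads1 ranked 4206, 2301 and 1274 and those of Elovl5 2006, 1235 and 648. Scd1, in intron 1, had summits 444 bp (fasted 2) and 488 bp (refed 2) downstream, ranked 8598 of 13456 and 8169 of 9929. Elovl3 had one at 193 bp in fasted 2 only. Elovl6 had one at 531 bp in fasted 2, and others at 1524 bp in fasted 1 and 1073 bp in refed 2, outside the window. Scd2 had none in any liver.

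**Figure D5:**
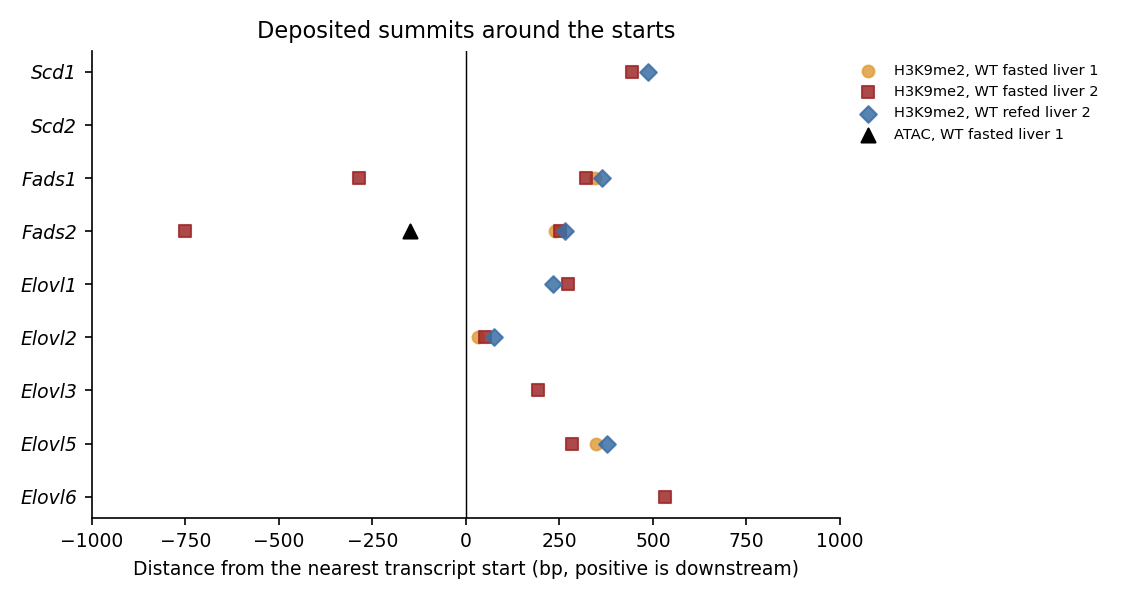
Distance in bp from the nearest transcript start to each deposited summit within 1000 bp, by gene (circles WT fasted 1, squares WT fasted 2, diamonds WT refed 2, H3K9me2; triangle the ATAC summit). The downstream H3K9me2 summits of Fads2, Elovl2, Fads1 and Elovl5 lie close together in these 3 livers, and WT fasted 2 has 1 upstream summit each at Fads1 and Fads2.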

How the data were processed

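Mouse liver RNA-seq, ATAC-seq and H3K9me2 ChIP-seq from 18 samples, 2 per group, were used; the 9 genes and the gene lists were chosen with earlier results of these data known. The deposited RNA-seq table holds estimated counts (expected counts) per RefSeq transcript, which the authors made with Partek Flow, and 65.7% to 66.0% of transcripts have fractional values; the submitters' processing notes name HISAT2, with no role, and DESeq2 3.5, which the methods give for the authors' RNA-seq comparison. Deposited peak files hold MACS2 2.1.1 summits with a score of −log10 q value, called by the authors on mm10 at q 0.05, with enrichment of at least 2.5-fold over input for ChIP and 2-fold for ATAC. The authors' gene list, which holds their own comparison, was not used.

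Counts were summed per gene, rounded and tested with edgeR 4.0.16 (R 4.3.3; TMM, filterByExpr, quasi-likelihood, Benjamini-Hochberg adjusted p under 0.05). Standard errors are those implied by the F statistic. CPM of single genes used TMM-scaled library sizes, whereas summed CPM of marker lists used library totals without TMM. TPM used transcript lengths for 24682 of 24994 transcripts. The fit was tested on simulated counts with known changes. A summit counted within 1000 bp of any RefSeq start (GRCm38.p6). Libraries are pools, and p-values measure the spread between them. 0 columns of per-sample values were left unused. All 9 genes were named, with up to 3 called genes per list and direction, and any gene of the desaturase, elongation and electron transfer lists; some results are not reported here. Alternatives were DESeq2 1.42.0, upper-quartile scaling, other filters, a replicate block, single transcripts, other windows and leaving out each library or liver. Replicates were not duplicates (chi-square per degree of freedom 12.9 and 32.6).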

Additional observations from a re-analysis of the deposited data

How the results depend on the processing

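No sign of a difference called among the 9 genes changed under the 10 alternatives. Scd1 stayed between 1.86 and 2.11 on the log2 scale, Elovl3 between 2.34 and 3.02 and Elovl6 between -0.74 and -0.43. The count of genes called, 3958, became 2326 with the most abundant transcript only, and 1068 to 5180 when 1 library was left out, with 1265 without WT refed 1 and 1068 without WT refed 2. Of the 9 genes 6 were called, and 3 to 7 when 1 library was left out: without WT refed 2 only Scd1, Fads2 and Elovl3 were. The call of Fads1 was also lost without the filter, without WT refed 1 or LKO-labelled 2, and with single transcripts. With upper-quartile scaling 65.4% of calls were higher, against 52.2%, and the median of all genes shifted to 0.072. With the replicate block 4207 genes were called; the numbers did not pair the libraries (r = -0.005), and the same 6 were called. Of the marker genes, the male-biased Hsd3b5 (0.20, not called) was called at -0.43 without LKO-labelled 1 and at 0.64 without LKO-labelled 2.

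Asking for a summit in both livers gave 0 of 9 genes for ATAC in WT fasted (7.36% of tested genes), and for H3K9me2 4 in WT fasted (51.3%) and 0 in WT refed (0.0723%). Leaving out a liver gave 0 to 1, 4 to 8 and 0 to 6. The order of the 9 levels in WT was the same with the longest transcript and with either library alone. The peak files give no depth, so how far depth limits the summits found is unknown.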
